A study of Mus musculus with 6 samples.

Results

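Of 9 genes of the purine nucleotide cycle and of adenylate kinase in interscapular brown adipose tissue, 8 were tested. Of these, 3 passed as higher in mice without a working Ucp1 gene than in wildtype mice, and none as lower. Over all tested genes, 7.0% passed as higher and 0.745% as lower. Of the 3, Adssl1 passed narrowly and lost its call in 13 of 17 alternatives. The 9 genes were taken by symbol from a deposited table that covers 29072 genes: Ampd1, Ampd2, Ampd3, Adssl1, Adss, Adsl, Ak1, Ak3 and Ak4. Total RNA was sequenced from the dissected brown fat depot between the shoulder blades, in 3 UCP1(-/-) libraries (UCP1-KO below) and 3 wildtype libraries, all of the C57BL/6J strain. The labels used here give no age, sex, housing temperature or Cre driver, and they do not say that replicates were separate animals, so p-values measure the spread between these libraries, which may be technical. Levels are RPKM, reads scaled to transcript length and library total, so genes of different length can be set side by side.

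The purine nucleotide cycle turns over adenine nucleotides in the cytosol. AMP deaminase, encoded by Ampd1, Ampd2 and Ampd3, removes the amino group of AMP to give IMP and ammonia. Adenylosuccinate synthase, encoded by Adssl1 and Adss, joins IMP to aspartate, and adenylosuccinate lyase, encoded by Adsl, splits the product into AMP and fumarate. Adenylate kinases interconvert ATP, ADP and AMP, AK1 in the cytosol and AK3 and AK4 in the mitochondrial matrix. The cycle is best known from contracting skeletal muscle, where AMPD1, ADSSL1 and AK1 are the abundant isozymes. In brown adipocytes, purine nucleotides are also known as inhibitors that bind UCP1.

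Library totals of about 15800000 to 18000000 reads were estimated from the steps between low RPKM values and Ensembl transcript lengths. Ucp1, the uncoupling protein of brown fat mitochondria, stood at 375, 389 and 372 RPKM in UCP1-KO and at 3096, 1714 and 3151 RPKM in wildtype, where replicate 2 was the lowest (log2 change -2.75, SE 0.21, limma adjusted p = 0.000408). The 10 brown adipocyte markers, none at 0, summed to 13990 to 14874 RPKM in UCP1-KO and 13430 to 14148 RPKM in wildtype. Fabp4, the fatty acid binding protein of adipocytes, made up most of that sum, and the other 9 summed to 5572 to 5603 RPKM in UCP1-KO and 5077 to 5689 RPKM in wildtype. Of the 10, 1 passed as higher and none as lower, against 7.0% and 0.745% of all tested genes. The 1 that passed was Elovl3, a fatty acid elongase. It stood at 71.7, 113.7 and 79.0 RPKM in UCP1-KO and 32.8, 52.3 and 54.2 RPKM in wildtype (log2 change 0.92, limma adjusted p = 0.0403). The Elovl3 call was lost in 8 of 17 alternatives, among them leaving out UCP1-KO replicate 1, 2 or 3 or wildtype replicate 1 (log2 change 0.69 to 1.05, limma adjusted p 0.00722 to 0.128 over all alternatives). Fabp4 and Elovl3 were named after their values were seen. The summed level of 20 fast skeletal muscle fibre genes was 1790 to 2016 RPKM in UCP1-KO, and 256.5, 293 and 60.01 RPKM in wildtype replicates 1, 2 and 3. All 20 passed as higher, against 7.0% of all tested genes, and none was at 0 in every library. Myh2, Ryr1, Cacna1s, Neb and Ttn averaged 0.374 to 0.740 RPKM in wildtype. They met the filter, a mean of 1 RPKM in either group, only through UCP1-KO. By the summed levels, muscle RNA differed with genotype, and wildtype replicate 3 stood apart from the other wildtype libraries.

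Only genes averaging 1 RPKM or more in UCP1-KO or in wildtype were tested, which kept 8 of the 9 members and left out Ak4. Ampd1, Adssl1 and Ak1 passed as higher in UCP1-KO at an adjusted p of 0.05, and 5 members did not pass. Over all 11541 tested genes, 7.75% passed in either direction, 7.0% as higher and 0.745% as lower. After scaling the libraries by the median of ratios, 2 members and 5.56% of tested genes passed. Without UCP1-KO replicate 1 or 2, 477 and 457 genes passed in all, in place of 894. The UCP1-KO and wildtype libraries did not overlap for 4 of the 8 tested members, all higher in UCP1-KO, against 24.3% of all tested genes. The median log2 change was 0.08 over the tested members and 0.076 over all tested genes. Each group of isozymes held a member that passed as higher and at least 1 that did not, which the plot of the members by library shows.

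**Figure D1:**
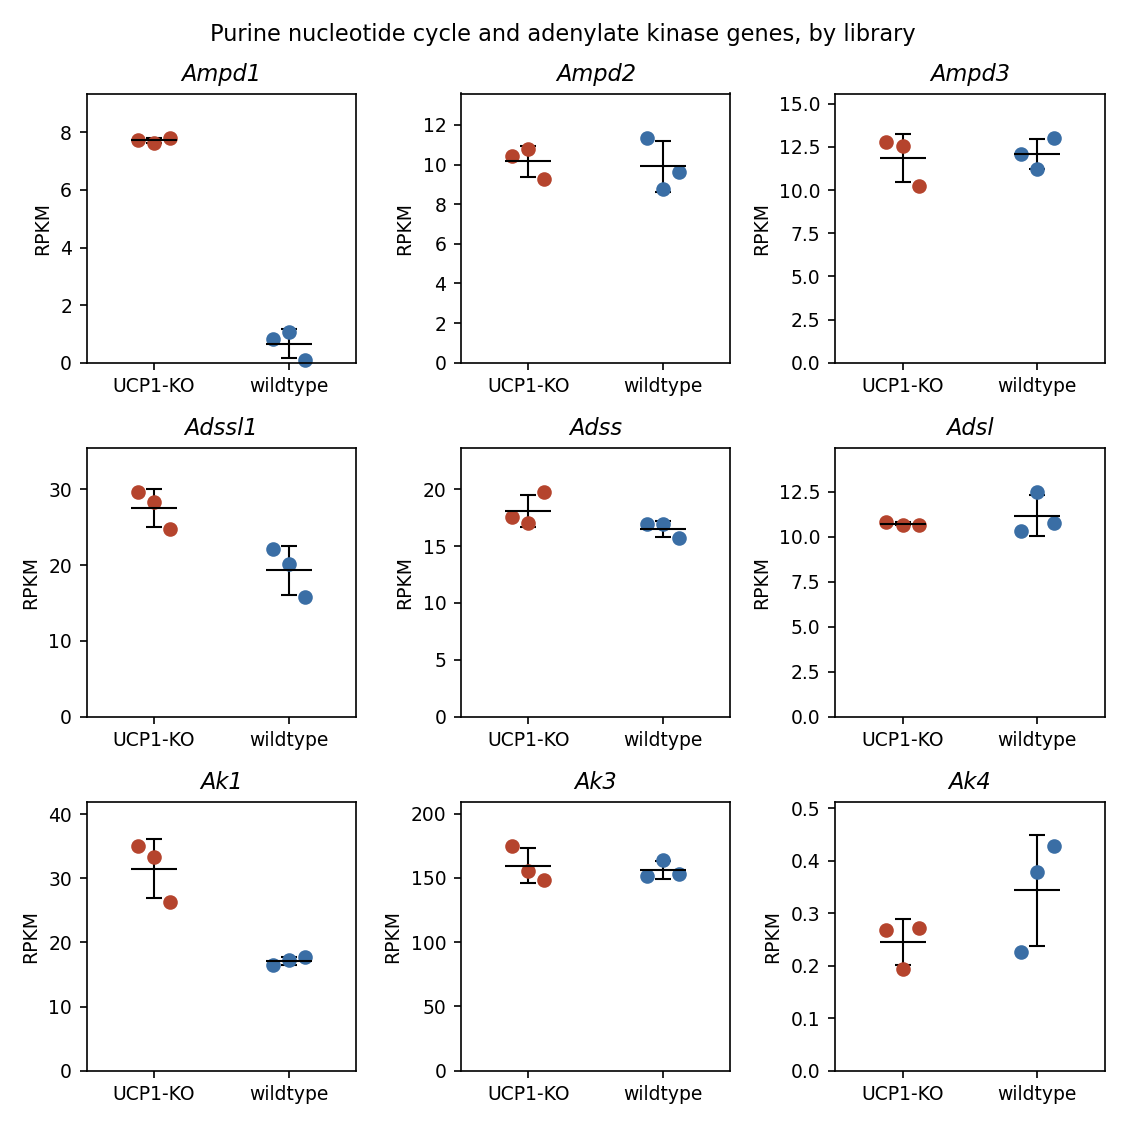
RPKM of each of the 9 genes in the 3 UCP1-KO libraries (red) and the 3 wildtype libraries (blue), on linear axes from 0, with a bar at the mean and error bars of 1 SD. Ampd1 (7.63 to 7.79 RPKM in UCP1-KO, 0.105 to 1.05 RPKM in wildtype), Adssl1, Adss and Ak1 show no overlap between the groups.

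Among the AMP deaminases, Ampd1 passed the test, and Ampd2 and Ampd3 did not. Ampd1, the isozyme of skeletal muscle fibres, stood at 7.73, 7.63 and 7.79 RPKM in UCP1-KO replicates 1, 2 and 3, against 0.836, 1.05 and 0.105 RPKM in wildtype replicates 1, 2 and 3. The UCP1-KO libraries lay close together and above every wildtype library, and wildtype replicate 3 was far below the other wildtype libraries. With the length of the paired Ensembl transcript, these levels correspond to 290, 282 and 329 reads in UCP1-KO and 32, 40 and 4 reads in wildtype. Mean levels were 7.72 ± 0.0814 RPKM in UCP1-KO and 0.664 ± 0.496 RPKM in wildtype (SD, n = 3 each), an 11.6-fold difference. The log2 change was 2.44 (SE 0.20, limma adjusted p = 0.000477), taken on log2(RPKM + 1), where the added 1 shrinks differences between low levels. With 0.1 RPKM added instead, the log2 change was 3.69. Ampd1 met the filter of 1 RPKM only through its UCP1-KO mean. With no filter on low values its log2 change was 2.44 (limma adjusted p = 0.00373). All 3 rows that the table gives for Ampd1 were higher in each UCP1-KO library than in any wildtype library, but rows of a gene share reads.

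The level of Ampd1 was set against the muscle genes within each library. For every 100 RPKM of the summed fast fibre genes there were 0.383, 0.379 and 0.435 RPKM of Ampd1 in UCP1-KO, and 0.326, 0.359 and 0.175 RPKM in wildtype. The ratio was lowest in wildtype replicate 3, where it rests on 4 reads of Ampd1, and the other 5 libraries lay between 0.326 and 0.435. Every UCP1-KO ratio lay above every wildtype ratio, with means of 0.399 and 0.287. Acta1, an actin of the sarcomere, was 10.6-fold higher in UCP1-KO and Ckm, the muscle creatine kinase, 11.4-fold higher, beside the 11.6-fold of Ampd1. The part of muscle RNA in the Ampd1 difference was not tested. In bulk RNA, more cells of a type and more RNA per cell cannot be told apart.

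Ampd2, the deaminase first described from liver, stood at 10.5, 10.8 and 9.28 RPKM in UCP1-KO and 11.3, 8.74 and 9.64 RPKM in wildtype. The groups overlapped, and the log2 change was 0.04 with a 95% interval of -0.20 to 0.28. Ampd3, the deaminase first described from red blood cells, stood at 12.8, 12.6 and 10.2 RPKM in UCP1-KO and 12.1, 11.3 and 13.0 RPKM in wildtype. Its groups overlapped too, with a log2 change of -0.03 (95% interval -0.26 to 0.20). The summed level of 5 red cell genes was 89.2 to 131 RPKM in UCP1-KO and 92.1 to 203 RPKM in wildtype. It was highest in wildtype replicate 2, which had the lowest wildtype level of Ampd3, within a narrow range of 11.3 to 13.0 RPKM. The part of red cell RNA in the level of Ampd3 was not tested.

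Ampd1 supplied 25.0%, 24.6% and 28.5% of the summed deaminase RPKM in UCP1-KO, and 3.45%, 4.999% and 0.462% in wildtype. Every UCP1-KO library was above every wildtype library. Summed deaminase RPKM was 29.7 ± 2.12 in UCP1-KO and 22.7 ± 1.59 in wildtype (SD, n = 3 each), a difference of 7.08 RPKM, close to the gap between the Ampd1 means. These shares are given as descriptions with no test. The size of the share depends on the row taken for each gene: summing all rows of each gene gave a difference of 10.7 percentage points in place of 23.1.

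**Figure D2:**
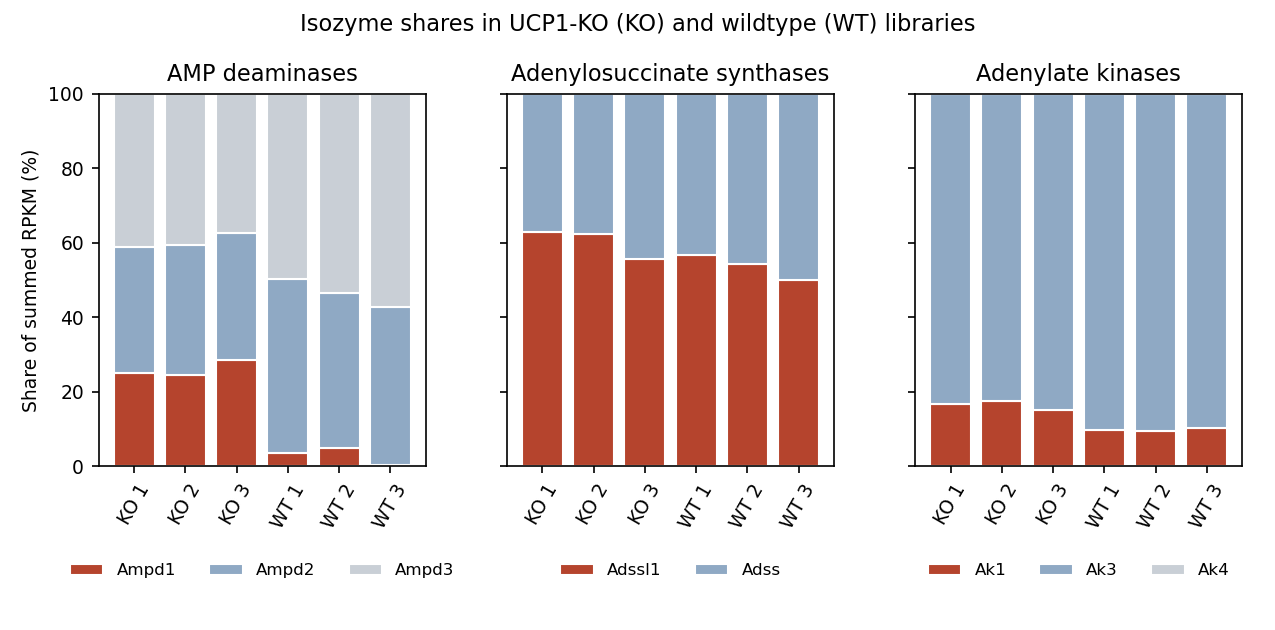
Stacked bars give the share of each isozyme (%, y axis from 0 to 100) in the summed RPKM of its family in every library, UCP1-KO (KO) left and wildtype (WT) right. The Ampd1 share was 24.6% to 28.5% in UCP1-KO and 0.462% to 4.999% in wildtype, while the Adssl1 share overlapped between the groups (55.6% to 62.7% and 50.03% to 56.7%).

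Of the adenylosuccinate synthases, Adssl1 passed narrowly and Adss did not pass. Adssl1, the muscle isozyme, stood at 29.6, 28.3 and 24.7 RPKM in UCP1-KO and at 22.1, 20.1 and 15.7 RPKM in wildtype. The groups did not overlap, and wildtype replicate 3, the library with the least muscle RNA, was again the lowest. The means were 27.5 ± 2.51 RPKM in UCP1-KO and 19.3 ± 3.26 RPKM in wildtype (SD, n = 3 each), 1.43-fold higher, with a log2 change of 0.50 (SE 0.13, limma adjusted p = 0.0486). The call was lost in 13 of 17 alternatives, among them median-of-ratios scaling (0.41, adjusted p = 0.111) and leaving out any 1 library other than wildtype replicate 1 (0.37 to 0.57, lowest without wildtype replicate 3). Over all alternatives its adjusted p ran from 0.0169 to 0.163. In wildtype replicate 3, the library with 4 reads of Ampd1, Adssl1 had about 454 reads. The part of muscle RNA in the Adssl1 difference was not tested.

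Adss, the isozyme found in most tissues, stood at 17.6, 17.03 and 19.7 RPKM in UCP1-KO and at 16.9, 16.9 and 15.7 RPKM in wildtype. Its groups did not overlap, but the gap between the nearest libraries was small and the log2 change of 0.12 did not pass (95% interval -0.06 to 0.31, limma adjusted p = 0.385). Adssl1 supplied 60.3% ± 4.004 of the summed synthase RPKM in UCP1-KO and 53.7% ± 3.36 in wildtype (SD, n = 3 each), and these shares overlapped. Adsl, the lyase that closes the cycle and also serves purine synthesis, stood at 10.8, 10.7 and 10.7 RPKM in UCP1-KO and 10.3, 12.5 and 10.8 RPKM in wildtype. The Adsl libraries overlapped, and its log2 change was -0.05 (95% interval -0.24 to 0.14).

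Among the adenylate kinases, Ak1 was higher in UCP1-KO. Ak1, the cytosolic kinase, stood at 35.0, 33.2 and 26.3 RPKM in UCP1-KO replicates 1, 2 and 3, against 16.5, 17.3 and 17.7 RPKM in wildtype replicates 1, 2 and 3. The lowest UCP1-KO library, replicate 3, lay above every wildtype library, and the wildtype libraries lay close together. Means were 31.5 ± 4.60 RPKM in UCP1-KO and 17.2 ± 0.624 RPKM in wildtype (SD, n = 3 each), 1.84-fold higher. The log2 change was 0.83 (SE 0.11, limma adjusted p = 0.00241), and it passed in all 17 alternatives, with values of 0.74 to 0.95. All 9 rows that the table gives for Ak1 were higher in each UCP1-KO library than in any wildtype library. These rows share reads, so they do not repeat the result independently.

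In wildtype, Ak1 did not follow the order of the muscle genes. Wildtype replicate 3, with the least muscle RNA, had the highest wildtype level of Ak1, 17.7 RPKM. The ratio of Ak1 to 100 RPKM of the summed fast fibre genes was 1.73, 1.65 and 1.47 in UCP1-KO and 6.43, 5.89 and 29.5 in wildtype. A lower ratio in UCP1-KO was not particular to Ak1. For Adssl1 the mean ratio was 1.42 in UCP1-KO and 13.9 in wildtype. Members that did not pass had a lower ratio too, with means of 0.524 against 7.82 for Ampd2 and 8.22 against 123 for Ak3. Leaving out wildtype replicate 3 gave a log2 change of 0.85. In UCP1-KO, replicate 3 had both the least fast fibre RNA, 1790 RPKM, and the least Ak1. The part of muscle RNA in the Ak1 difference was not tested.

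**Figure D3:**
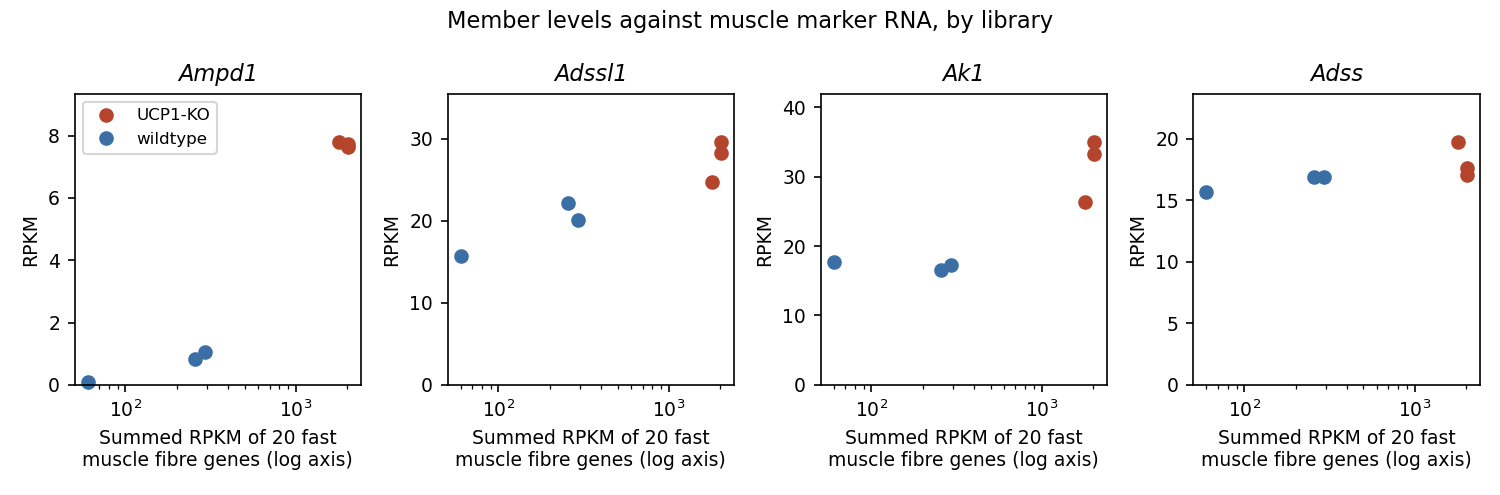
RPKM of Ampd1, Adssl1, Ak1 and Adss (y axes, linear from 0) against the summed RPKM of 20 fast skeletal muscle fibre genes (x axes, log scale) in each library, UCP1-KO in red and wildtype in blue. Wildtype replicate 3, at 60.01 RPKM of muscle genes, had 0.105 RPKM of Ampd1, 15.7 RPKM of Adssl1, 17.7 RPKM of Ak1 and 15.7 RPKM of Adss.

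Ak3, a matrix kinase that uses GTP, was the most abundant of the 9 genes in both genotypes. It stood at 174, 155 and 149 RPKM in UCP1-KO and at 151, 164 and 153 RPKM in wildtype, with overlapping groups. Its log2 change was 0.03 (95% interval -0.16 to 0.22). Ak4, a further matrix member of the family, stood at 0.268, 0.194 and 0.272 RPKM in UCP1-KO and 0.225, 0.378 and 0.427 RPKM in wildtype, from about 12.83 to 20.53 reads and 15.4 to 29.1 reads per library. These levels overlapped and lay under the filter. RefSeq names a pseudogene of this family, Ak3l2-ps, and how the authors shared reads between near-identical copies is not stated, so the level of Ak4 is uncertain. With no filter on low values its log2 change was -0.11 (SE 0.07, limma adjusted p = 0.443 over 20459 genes). Ak1 supplied 16.4% ± 1.32 of the summed RPKM of these kinases in UCP1-KO and 9.90% ± 0.435 in wildtype (SD, n = 3 each), without overlap.

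The order of the levels differed little between the genotypes. In UCP1-KO it ran from Ak3 through Ak1, Adssl1, Adss, Ampd3, Adsl, Ampd2 and Ampd1 to Ak4. The libraries of Ak1 and Adssl1 overlapped there, as did those of Ampd3 with Adsl and of Adsl with Ampd2, and the other neighbours did not. In wildtype Adssl1 stood before Ak1, and the rest of the order was the same. Adssl1, Ak1 and Adss overlapped from neighbour to neighbour in wildtype, as did Ampd3, Adsl and Ampd2. Ampd1 and Ak4 overlapped in wildtype too, and in wildtype replicate 3 Ak4 (0.427 RPKM) stood above Ampd1 (0.105 RPKM).

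Promoter windows from RefSeq, 250 bases before to 50 bases after an annotated start on GRCm38.p6, were found for 8 of the 9 genes, and Ampd1 had none. The windows were searched on both strands for CAGCTG, an E-box form bound by myogenic factors, and for the motif of MEF2, a muscle transcription factor family. CAGCTG was found in 16.3% of all 32851 windows, the MEF2 motif in 3.19%, and both in 0.478%. Ak1 and Adssl1 are called members that were higher in the same comparison. Shown are the Adssl1 window and the first and second Ak1 windows, the only Ak1 windows with a match. The second Ak1 window held both motifs, 1 match each, and the first held CAGCTG. The other 2 Ak1 windows, the Adssl1 window and every window of Ampd2, Ampd3, Adss, Adsl and Ak4 held neither, and the Ak3 window held CAGCTG. Capitals mark the matches, which do not overlap each other.
Ak1, first start, chr2:32621508-32621807, plus strand: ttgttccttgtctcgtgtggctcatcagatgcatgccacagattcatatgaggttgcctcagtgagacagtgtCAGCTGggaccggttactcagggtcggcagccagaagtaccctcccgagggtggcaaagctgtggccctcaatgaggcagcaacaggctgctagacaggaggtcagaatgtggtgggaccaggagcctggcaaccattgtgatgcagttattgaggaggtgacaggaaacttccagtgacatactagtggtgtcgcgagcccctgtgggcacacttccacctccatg
Ak1, second start, chr2:32625187-32625486, plus strand: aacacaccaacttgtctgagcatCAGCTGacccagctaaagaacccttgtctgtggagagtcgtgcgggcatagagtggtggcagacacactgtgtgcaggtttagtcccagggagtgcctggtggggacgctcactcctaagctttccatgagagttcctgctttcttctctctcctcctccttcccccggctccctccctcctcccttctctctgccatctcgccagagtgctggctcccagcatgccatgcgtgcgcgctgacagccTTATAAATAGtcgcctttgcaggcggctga
Adssl1, chr12:112619797-112620096, plus strand: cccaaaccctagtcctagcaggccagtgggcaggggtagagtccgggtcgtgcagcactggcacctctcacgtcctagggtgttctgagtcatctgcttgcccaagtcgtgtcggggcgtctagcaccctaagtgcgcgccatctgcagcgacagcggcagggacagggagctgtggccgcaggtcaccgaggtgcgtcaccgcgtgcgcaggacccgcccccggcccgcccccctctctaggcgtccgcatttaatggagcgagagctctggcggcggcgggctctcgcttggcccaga
The deposited table gives 4 RefSeq rows for Ak1 that share reads, so the levels do not tell these starts apart.

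Of 6 lists of other genes around the cycle, 4 held members that passed, all as higher, the direction of 7.0% of all tested genes. In the list of fumarate and aspartate supply, 3 of 7 tested members were higher and none was lower, against 7.0% higher and 0.745% lower over all tested genes. Got1, the cytosolic aspartate aminotransferase, stood at 29.9, 27.0 and 27.0 RPKM in UCP1-KO and 11.7, 7.45 and 14.6 RPKM in wildtype (log2 change 1.29, limma adjusted p = 0.00498). The lowest UCP1-KO library lay well above the highest wildtype library, and wildtype replicate 2 was the lowest. Slc25a12, a mitochondrial carrier that exports aspartate, stood at 4.72, 3.90 and 3.76 RPKM in UCP1-KO and 0.963, 1.43 and 1.09 RPKM in wildtype, without overlap (log2 change 1.25, limma adjusted p = 0.000639). Asl, which releases fumarate in arginine synthesis, was at the edge of the threshold (log2 change 0.41, limma adjusted p = 0.0496). Fh1, which hydrates fumarate, was outside the rule for named genes and was chosen after its values were seen. It stood at 279 to 306 RPKM in UCP1-KO and 293 to 304 RPKM in wildtype. The list's median log2 change was 0.12, against 0.076 over all tested genes. Leaving out 1 library gave 2 to 3 calls in the list, and a filter at 5 RPKM gave 1. The part of muscle RNA in the Got1, Slc25a12 and Asl differences was not tested.

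AMP-activated protein kinase senses the AMP that adenylate kinase produces. Of 8 tested genes of the kinase and its activators, 2 were higher and 6 did not pass, against 7.0% of all tested genes that passed as higher, with a median log2 change of 0.14. Prkab2, a regulatory beta subunit, stood at 3.80, 4.13 and 3.36 RPKM in UCP1-KO and 2.18, 2.71 and 1.88 RPKM in wildtype (log2 change 0.55, limma adjusted p = 0.0228). Prkaa2, a catalytic subunit, stood at 8.05, 8.65 and 6.53 RPKM in UCP1-KO and 4.99, 5.80 and 5.51 RPKM in wildtype (log2 change 0.44, limma adjusted p = 0.0439). Both genes had higher levels in each UCP1-KO library than in any wildtype library. The part of muscle RNA in the Prkab2 and Prkaa2 differences was not tested. With median-of-ratios scaling 0 genes of this list and 5.56% of all tested genes passed, and likewise 0 without UCP1-KO replicate 1 or 2 or wildtype replicate 1 or 3.

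In purine nucleotide breakdown, Nt5c, a cytosolic nucleotidase, was the 1 gene of 8 tested to pass. It stood at 6.59, 6.61 and 7.51 RPKM in UCP1-KO and 5.40, 4.21 and 4.43 RPKM in wildtype (log2 change 0.48, limma adjusted p = 0.0234), and the list's median was 0.24. Among other nucleotide kinases, Cmpk2, a mitochondrial kinase of pyrimidine nucleotides, was the 1 gene of 7 tested to pass. Its levels were 3.13, 3.34 and 3.48 RPKM in UCP1-KO and 2.38, 2.28 and 2.57 RPKM in wildtype (log2 change 0.34, limma adjusted p = 0.0403), and the list's median was 0.19. Over all tested genes, 7.0% passed as higher and the median log2 change was 0.076. A single call thus says little about lists of 8 and 7 tested genes. Neither the Nt5c nor the Cmpk2 call held with median-of-ratios scaling, where both lists had 0 calls. Leaving out any 1 library ended the call on Cmpk2, and the breakdown list had 0 calls without UCP1-KO replicate 1, 2 or 3 and 2 without wildtype replicate 2.

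None of 6 tested genes of de novo purine synthesis and none of 8 of the GMP branch and salvage passed limma's test. At an unadjusted p under 0.05 there was 1 of 6 in the synthesis list and 4 of 8 in the salvage list, against 2724 or 23.6% of all tested genes. Atic, which makes IMP, had the smallest p of the synthesis list, with 8.66, 8.40 and 7.03 RPKM in UCP1-KO and 6.99, 6.77 and 5.63 RPKM in wildtype (log2 change 0.27, limma adjusted p = 0.159). Adk, which phosphorylates adenosine to AMP, had the smallest p of the salvage list, with 35.0, 32.8 and 34.7 RPKM in UCP1-KO and 37.4, 40.9 and 40.2 RPKM in wildtype (log2 change -0.20, limma adjusted p = 0.126). The groups did not overlap for either gene, Atic lying higher and Adk lower in UCP1-KO. The medians were 0.08 for synthesis and 0.20 for salvage, beside 0.076 over all tested genes.

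**Figure D4:**
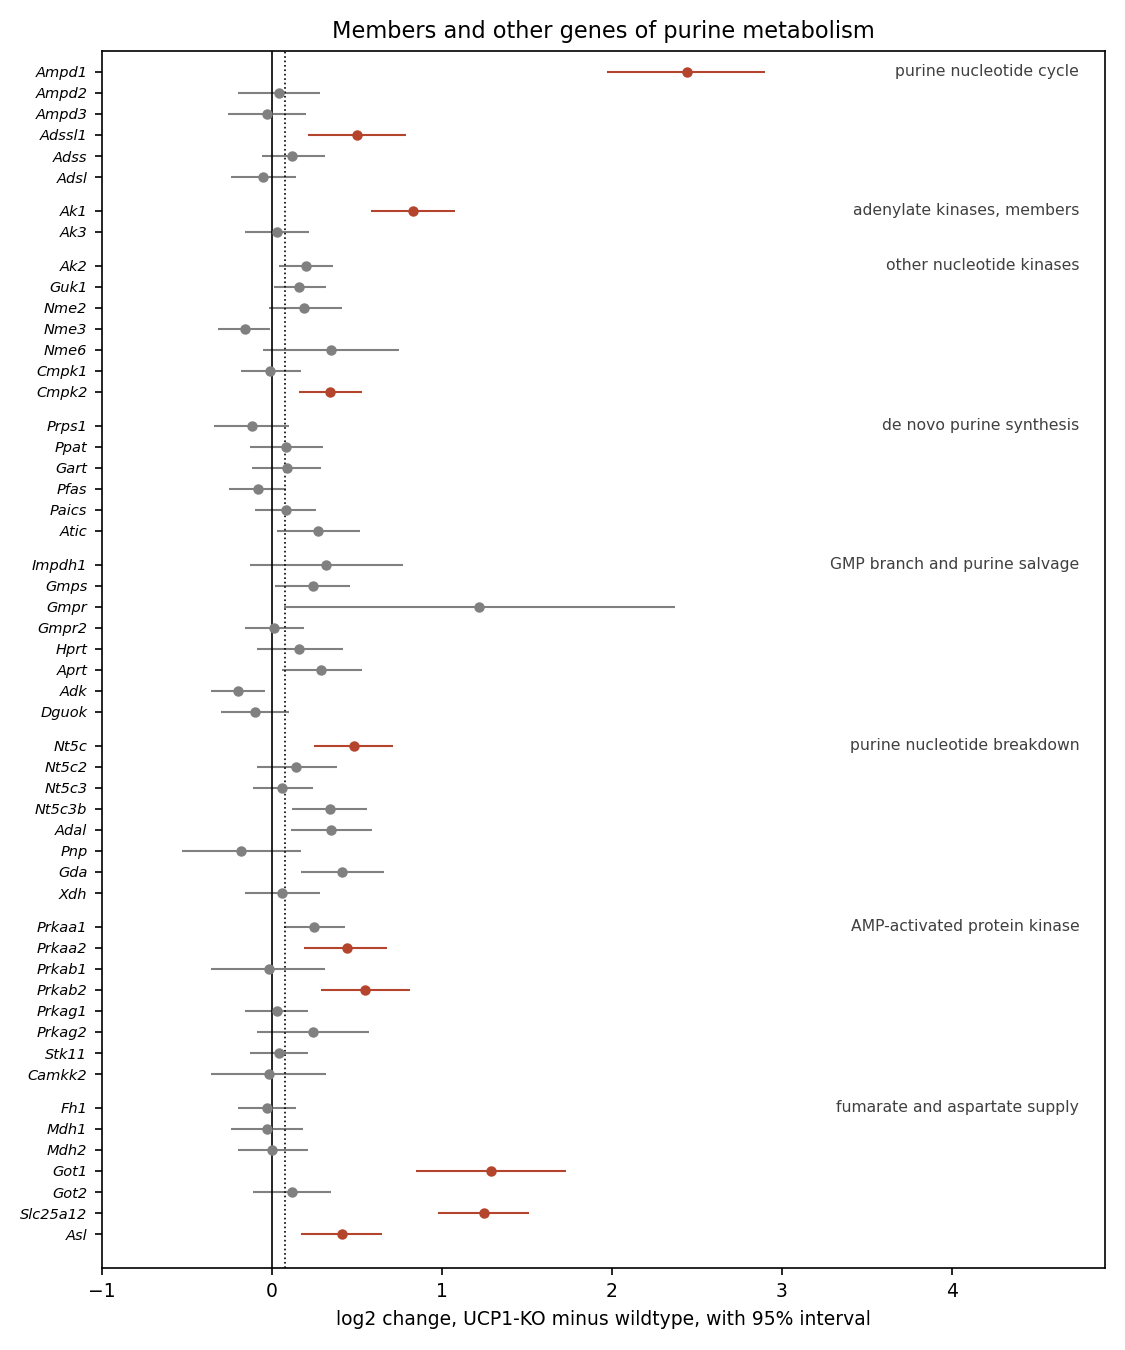
Log2 change of UCP1-KO minus wildtype (x axis, log2(RPKM + 1) scale) with its 95% interval for the 8 tested members and the tested genes of 6 related lists (rows). Red marks genes that passed an adjusted p of 0.05, and the dotted line marks the median of all tested genes at 0.076. Ampd1 at 2.44, Got1 at 1.29, Slc25a12 at 1.25 and Ak1 at 0.83 were among those that passed.

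The tested genes most like each called member were named by the root mean square distance between log2(RPKM + 1) values, each centred on its own mean over the 6 libraries. For Ampd1 these were Hfe2 (distance 0.078), Hrc (0.10) and Tpm1 (0.118). Hfe2, the nearest, stood at 8.83, 9.19 and 8.70 RPKM in UCP1-KO and 0.818, 1.19 and 0.183 RPKM in wildtype, with the same low wildtype replicate 3. For Ak1 they were Dnajb13 (0.062), Asb14 (0.067) and Dnase2a (0.067), and for Adssl1 they included Axin2 (0.063) and Tnc (0.069). Neither Axin2 nor Tnc passed (limma adjusted p = 0.157 and 0.108), and the Axin2 groups overlapped. Dnajb13 and Asb14 averaged 0.197 and 0.142 RPKM in wildtype, where the added 1 shrinks differences. They were 5.93-fold and 8.36-fold higher in UCP1-KO, against 1.84-fold for Ak1. Dnase2a stood at 5.74, 5.44 and 4.52 RPKM in UCP1-KO and 2.76, 2.66 and 2.73 RPKM in wildtype. As for Ak1, UCP1-KO replicate 3 was the lowest of its group and the wildtype libraries lay close together. Dnase2a and Hfe2 were picked by profile, so their likeness to Ak1 and Ampd1 follows from the choice.

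Markers of other cell types were summed in the same way. The 8 slow muscle fibre genes summed to 115 to 210 RPKM in UCP1-KO and 63.1 to 66.4 RPKM in wildtype. Of these, 8 of 8 passed as higher, against 7.0% of all tested genes. Myh7, Tnnt1 and Tnni1 averaged under 1 RPKM in wildtype and met the filter only through UCP1-KO. Most of the wildtype sum was Atp2a2, a calcium pump found in many tissues, at 66.8 to 78.8 RPKM in UCP1-KO and 49.1 to 57.9 RPKM in wildtype. The other 7 genes summed to 131, 47.8 and 58.2 RPKM in UCP1-KO and 11.2, 14.0 and 5.83 RPKM in wildtype, where replicate 3 was again the lowest. Atp2a2 was set apart after its values were seen. The 10 macrophage genes summed to 76.7 to 105 RPKM in UCP1-KO and 46.9 to 75.2 RPKM in wildtype, without overlap. Of the 10 tested, 1 passed, as higher, against 7.0% of all tested genes. At an unadjusted limma p under 0.05 there were 8 of 10, against 23.6% of all tested genes. The median log2 change of the macrophage list was 0.44, against 0.076 over all tested genes. None of 8 endothelial genes passed, and their sum was 185 to 209 RPKM in UCP1-KO and 183 to 206 RPKM in wildtype. No gene of these 3 lists was at 0 in every library. Their part in the differences of Ampd1, Adssl1 and Ak1 was not tested.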

How the data were processed

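RNA of interscapular brown fat was sequenced after TruSeq RNA Sample Prep kit v2 library preparation, per the labels' protocols. CASAVA and bcl2fastq are named, without versions, per the submitters' processing notes. No label or header names an aligner, a genome build or an annotation (not given in the sources used here). Values were made by the authors, who deposited RPKM values for 168326 transcript rows in 6 libraries. No header names the unit, which was worked out from low values: their product with Ensembl transcript length was a whole multiple of a single step, within 0.1 reads, for 95.8% to 96.2% of those checked. Rows with no gene identifier (13.8%) were left out. A single row was kept per gene, RefSeq rows first, then Ensembl rows, then others, and the highest mean within a kind.

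Values were transformed to log2(RPKM + 1) and genes averaging 1 RPKM or more in UCP1-KO or wildtype were fitted with limma 3.58.1 in R 4.3.3, with an intensity trend and genotype as the only factor, which was tested on simulated data. P-values are two-sided, with Benjamini-Hochberg adjustment over all tested genes and a threshold of 0.05. The members and lists were chosen with earlier results of these data known. Named are all members, Ucp1, Acta1, Ckm, up to 3 called genes per pathway list or the 1 with the smallest p, and the 3 nearest genes of each called member, without predicted genes; 1 of the genes nearest to Adssl1 is not reported here. Counting by strand is not stated, so overlapping genes cannot be separated. Alternatives changed scaling, filter, pseudocount, rows, threshold, trend, block and replicates. List symbols Ak6, Nme1, Hbb-b1, Hbb-b2 and Epb4.2 had no row.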

Additional observations from a re-analysis of the deposited data

How the results depend on the processing

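The calls on Ampd1 and Ak1 held in all 17 alternatives, with log2 changes of 2.17 to 3.69 and 0.74 to 0.95. The cause of the changes below was not tested. All-gene calls, 894 as reported, were 452 with a filter at 5 RPKM, 1441 at a threshold of 0.1, 370 at a threshold of 0.01, and 457 to 850 when 1 library was left out, lowest without UCP1-KO replicate 2 (457) and replicate 1 (477). With median-of-ratios scaling 641 genes passed, and the share of calls that were higher was 76.1% in place of 90.4%, with a median log2 change of -0.009 in place of 0.076. Adssl1 did not pass with median-of-ratios scaling (0.41), no filter (0.50), a filter at 5 RPKM (0.50), a pseudocount of 0.1 (0.52), summed rows (0.50), the highest row of any kind (0.46), a threshold of 0.01 (0.50) or no intensity trend (0.50), and ran from 0.37 to 0.60 with 1 library left out. The sign turned for members that had not passed: Ampd2 and Ak3 with median-of-ratios scaling (-0.05 and -0.07), Ampd3 with summed rows (0.01), and with 1 library left out Ampd2 (-0.04 to 0.13), Ampd3 (-0.08 to 0.06), Adsl (-0.10 to 0.02) and Ak3 (-0.04 to 0.08).

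Calls in the nucleotide kinase list, 1 as reported, were 0 with median-of-ratios scaling, no filter, a filter at 5 RPKM, summed rows, the highest row, a threshold of 0.01, the replicate block and each library left out (0 to 0). The breakdown list, 1 as reported, had 0 with median-of-ratios scaling, no filter and a threshold of 0.01, 2 with summed rows, 4 at a threshold of 0.1, and 0 to 2 with 1 library left out. The AMP-activated protein kinase list, 2 as reported, had 0 with median-of-ratios scaling, a filter at 5 RPKM and a threshold of 0.01, 1 with no filter, the highest row or the replicate block, and 0 to 2 with 1 library left out. The salvage list had 0 to 1 with 1 library left out, and the fumarate and aspartate list 1 with a filter at 5 RPKM. With summed rows the Ampd1 share differed by 10.7 percentage points and the Ak1 share by 8.93, in place of 23.1 and 6.53.

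The titles give both genotypes replicates 1 to 3. Deviations from the group mean had correlations of 0.0892, 0.0383 and -0.0183 between same-numbered libraries. With each mean taken over only 3 libraries, these values cannot decide whether the numbers mark pairs. With the replicate block 778 genes and 3 members passed, Adssl1 at an adjusted p of 0.0169. Depth limits Ak4 and Ampd1 in wildtype replicate 3, with 4 reads.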
